A study of Mus musculus with 6 samples.

Results

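The 10 transcription factor genes of the intermediate mesoderm and the mesonephros, Wt1, Osr1, Pax2, Pax8, Lhx1, Emx2, Lhx9, Foxd1, Tbx18 and Tbx15, were followed across 6 libraries. They were taken by symbol, and all 10 were among the 24393 genes listed in the count data. The libraries came from KH2 mouse embryonic stem cells of strain C57/BL/6, a line made for doxycycline-inducible transgenes, and formed 3 CONTROL and 3 HOXA13 samples. HOXA13 cells carried a FLAG-tagged human HOXA13 transgene, and targeted clones were picked by antibiotic selection. The protocol, worded alike for all 6 samples, differentiated the cells towards definitive endoderm on M15 feeder cells with Activin A, bFGF, CHIR and Noggin, gave doxycycline at 1.25 µg/ml from day 4, and on day 6 sorted the CXCR4+ E-cadherin+ cells, which were then cultured further with doxycycline. The labels do not say whether the 3 samples of a group were separate clones or cultures, and the paper's methods call them biological replicates. The p-values thus measure only the spread between these samples.

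Intermediate mesoderm is the strip of mesoderm beside the somites from which the nephric duct, the mesonephros, the kidney and the gonads form. Osr1 and Wt1 are among its early regulators, Pax2, Pax8 and Lhx1 drive formation of the nephric duct, Emx2 and Lhx9 act in the urogenital ridge and the gonad, and Foxd1, Tbx18 and Tbx15 act in stroma and mesenchyme. M15 is a mouse line derived from mesonephros and used as a feeder for endoderm differentiation, and sorted endoderm is not a tissue in which most of these genes are known to act. The question was therefore how much RNA of these regulators the sorted cultures held, and whether it differed between HOXA13 and CONTROL.

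The libraries held between 12279884 and 17331638 counts. The smallest level taken as detectable, 3 counts, equals 0.176 to 0.240 CPM (counts scaled to a common normalised library size), and covers counting error only. The induced gene matched the labels, since the row with the human identifier ENSG00000106031, which carries no symbol in the data, held 0 counts in the 3 CONTROL libraries and 2497, 7666 and 6572 in the HOXA13 libraries (adjusted p = 0.0146 by edgeR). Mouse Hoxa13 itself held 10, 0 and 1 counts in CONTROL and 0, 5 and 1 in HOXA13. Cdh1, which encodes the E-cadherin used for sorting, lay at 192, 1290 and 702 CPM in the CONTROL libraries and at 1730, 1690 and 1890 CPM in those of HOXA13, and Cxcr4 at 2.25 to 5.04 and 4.12 to 11.3 CPM. Endoderm genes were low, with 16 markers summing to 166 to 202 CPM in CONTROL and 122 to 160 CPM in HOXA13, and Cer1 had 0 counts in all 6 libraries. CONTROL replicate 2 stood apart from the other CONTROL libraries, with a sum of 14 pluripotency genes of 1690 CPM against 146 and 254 CPM, and members are given with and without it where that matters. These are bulk samples, in which fewer cells of a type and less RNA per cell cannot be told apart.

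Tbx18, Emx2 and Lhx9, whose levels varied alike from library to library, are shown by their promoters, 250 bases before to 50 bases after the RefSeq start site (sequence table of build GRCm38.p6). Each window was found by exact match on mm9, at chr9:87626046-87626345 (minus strand) for Tbx18, at chr19:59532930-59533229 (plus strand) for Emx2 and at chr1:140738972-140739271 (minus strand) for Lhx9. The Lhx9 window lies inside the annotated span of the gene given below, not at its outer start, so its values are those of an internal start site. Capitals mark the single match to CAATAAA, a motif of HOX13 proteins, read on the opposite strand.
Tbx18: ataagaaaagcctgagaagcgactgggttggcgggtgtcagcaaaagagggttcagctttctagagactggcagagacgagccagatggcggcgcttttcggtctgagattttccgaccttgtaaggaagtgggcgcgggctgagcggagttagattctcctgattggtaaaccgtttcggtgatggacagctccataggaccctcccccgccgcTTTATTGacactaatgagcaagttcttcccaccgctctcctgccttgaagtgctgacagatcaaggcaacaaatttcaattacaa
Emx2: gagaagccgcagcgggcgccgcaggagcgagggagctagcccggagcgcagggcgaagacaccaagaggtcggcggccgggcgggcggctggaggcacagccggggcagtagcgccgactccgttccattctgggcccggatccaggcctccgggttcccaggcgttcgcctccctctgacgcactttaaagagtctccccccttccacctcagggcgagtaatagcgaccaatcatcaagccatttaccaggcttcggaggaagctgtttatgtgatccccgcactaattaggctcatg
Lhx9: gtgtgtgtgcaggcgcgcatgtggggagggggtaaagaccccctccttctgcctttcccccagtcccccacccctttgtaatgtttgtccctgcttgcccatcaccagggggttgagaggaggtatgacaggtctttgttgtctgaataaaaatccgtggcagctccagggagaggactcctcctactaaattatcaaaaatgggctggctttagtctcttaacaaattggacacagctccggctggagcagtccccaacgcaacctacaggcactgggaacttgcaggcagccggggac
The match in Tbx18 began 35 bases before the start site. CAATAAA was searched on both strands and was held by 4.6% of 32851 promoters of the same length, and by 1 of the 9 windows available for 7 members. GCGTGGG, a WT1 motif, was held by 5.04% of all promoters, and TATAAA by 13.6%, and neither was in any of the 9 windows. GC content was 51.7% for Tbx18, 64.3% for Emx2 and 55.3% for Lhx9 (median of all promoters 52.7%), and the observed over expected CpG ratio was 0.755, 0.838 and 0.261 (median 0.384).

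On mm9 with the GENCODE M1 annotation, Wt1 spans chr2:104966686-105013773 (plus strand), Osr1 chr12:9581248-9588305 (plus), Pax2 chr19:44830539-44912758 (plus), Pax8 chr2:24276071-24331119 (minus) and Lhx1 chr11:84331479-84338923 (minus). Emx2 spans chr19:59533180-59539847 (plus), Lhx9 chr1:140721763-140745153 (minus), Foxd1, a gene of 1 exon, chr13:99124200-99126660 (plus), Tbx18 chr9:87597635-87626095 (minus) and Tbx15 chr3:99044304-99158182 (plus). Only Pax8 shared exon bases with another annotated gene, 87 bases with Gm13415 on the opposite strand, which has no row in the data. Among protein-coding transcripts, Osr1 shared 0.561% and Tbx18 0.108% of their 50-base stretches with another gene, and the other 8 members shared none. Noncoding transcripts were not searched. The strand option of the counting is not stated, so reads of a member and of an antisense partner cannot be told apart. Wt1os held 0 counts in every library, Emx2os at most 9 and Lhx1os at most 10.

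Per length, Tbx15 had the highest mean of the 10, and the duct regulators Pax2 and Pax8 were at or near 0. In CPM per kilobase of exon (RPKM) over all 6 libraries, the order of levels was Tbx15 at 2.92, Tbx18 at 1.28, Emx2 at 1.07, Lhx9 at 0.919, Foxd1 at 0.698, Lhx1 at 0.411, Osr1 at 0.354, Wt1 at 0.35, Pax2 at 0.0637 and Pax8 at 0.0233. Percentiles were taken over those of the 13600 tested genes that had an annotated exon length. Tbx15 lay at percentile 29.4 of these RPKM levels, Tbx18 at 17.8, Emx2 at 15.7, Lhx9 at 13.9 and Foxd1 at 10.9. The remaining tested members lay between 4.91 and 6.06. In CONTROL, the RPKM level of Tbx15 was 4.27 ± 1.30 (SD, n = 3) and that of Tbx18, the next in order, was 1.56 ± 0.522, so these differed by more than their SDs. In CONTROL, from Tbx18 to Emx2, Lhx9 and Foxd1, each neighbour in this order lay within the larger SD of the pair. In HOXA13, Tbx15 led as well at an RPKM level of 1.57 ± 0.679 (SD, n = 3), but Tbx18, the next at 1.00 ± 0.644, lay within its SD. Below Tbx18 the HOXA13 order was Emx2 at 0.818 ± 0.418, Lhx9 at 0.620 ± 0.433, Foxd1 at 0.381 ± 0.163, Osr1 at 0.351 ± 0.201, Lhx1 at 0.250 ± 0.140, Wt1 at 0.0926 ± 0.0861, Pax2 at 0.0770 ± 0.0757 and Pax8 at 0.0233 ± 0.0403. The RPKM order of the lower members was not the same in the groups. In CONTROL, Foxd1 at 1.02 ± 0.593 was followed by Wt1 at 0.607 ± 0.424, Lhx1 at 0.572 ± 0.440 and Osr1 at 0.357 ± 0.137, each within the larger SD of the pair it forms with its neighbour. In CONTROL, Tbx15 at the top and Pax2 and Pax8 at the bottom of the order stood clear of the SD of the members between them. Of the duct regulators, Pax2 and Pax8 were barely detected, whereas Lhx1 was above 3 counts in all 6 libraries. The lowest value of Lhx1, 6 counts in HOXA13 replicate 3, was below the 15 counts of Pax2 in HOXA13 replicate 2.

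**Figure D1:**
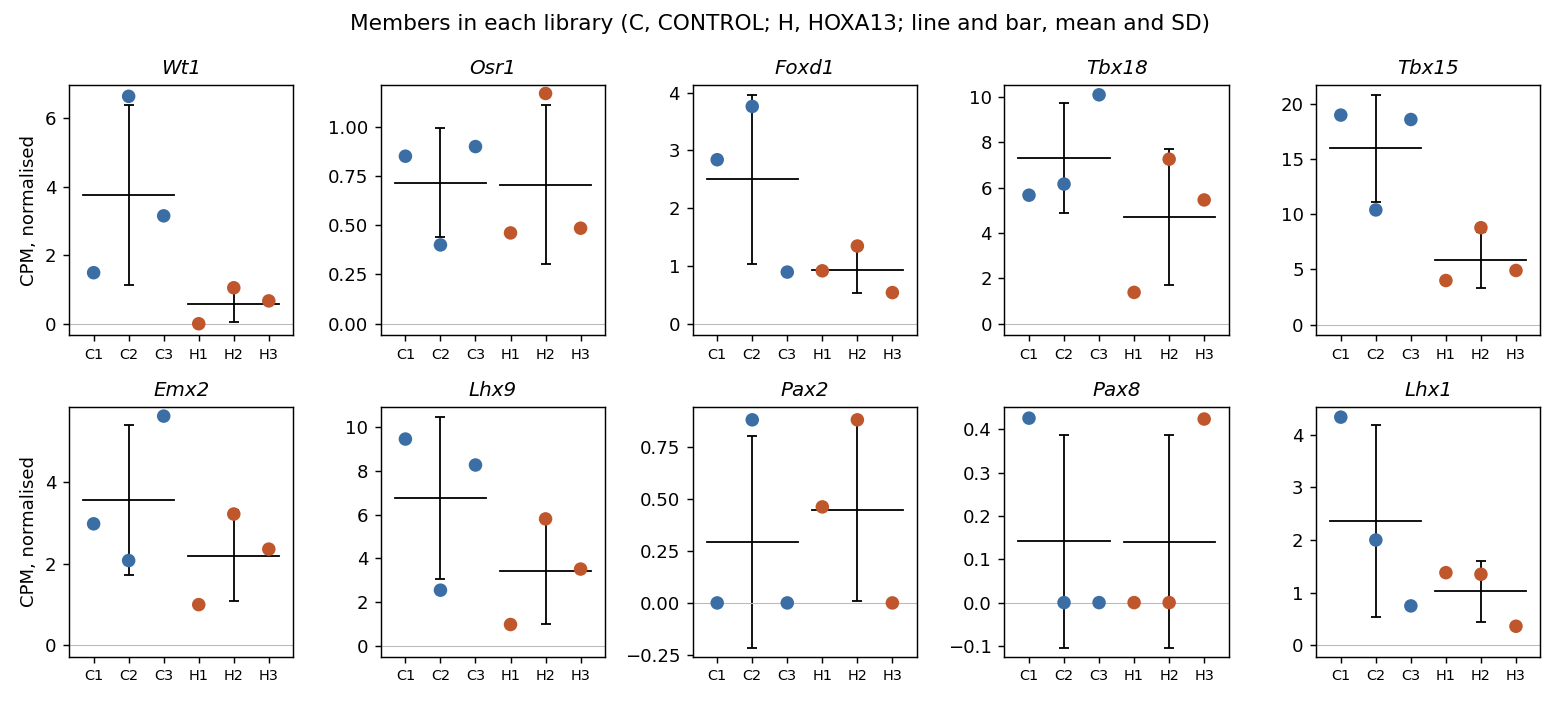
Normalised CPM (y axis) of each member in CONTROL libraries C1 to C3 and HOXA13 libraries H1 to H3 (x axis), with points for libraries and a line and bar for group mean and SD. The groups do not overlap for Wt1 and Tbx15, and Pax2 and Pax8 lie at 0 in several libraries.

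Of the 10 members, 8 passed the filter on low counts and were tested, while Pax2 and Pax8 did not pass. In the quasi-likelihood test of edgeR, adjusted by Benjamini-Hochberg over all genes, 0 of the 8 passed 0.05, where 0.309% of 13600 genes did. At an unadjusted p under 0.05, 1 of the 8 passed (Tbx15), where 14.1% of all tested genes did. All 8 fitted log2 fold changes (HOXA13 over CONTROL) were below 0, the median being -1.08 against -0.01 over all tested genes, of which 51.2% were below 0. Osr1 lay at -0.02, and its sign turned under other settings. The groups did not overlap for 2 of the 8 members, Wt1 and Tbx15, both lower in HOXA13, where 20.0% of tested genes did not overlap in either direction and 8.52% were lower without overlap. With DESeq2, 1 of the 8 passed (5.05% of all genes), with limma voom 1 (15.4%), and with edgeR without CONTROL replicate 2, 1 (14.2%), and each time the gene was Tbx15. Wt1, Osr1, Foxd1 and Lhx1 passed the filter in fewer HOXA13 than CONTROL libraries, whereas Tbx15, Tbx18, Emx2 and Lhx9 passed in all 6, and the shared sign of the tested members is given as a description.

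**Figure D2:**
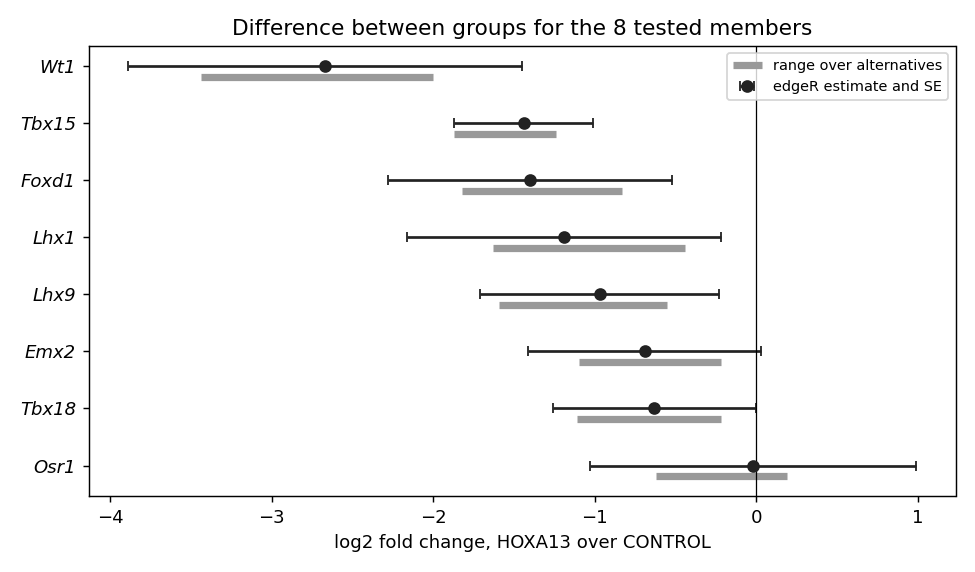
Log2 fold change of HOXA13 over CONTROL (x axis) for the 8 tested members (y axis), with the edgeR estimate and its SE as point and bar and the range over the alternative settings as a grey line. Wt1 has the lowest estimate at -2.67 and Tbx15 the smallest SE at 0.43, and the range of Osr1 spans 0.

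Wt1, a zinc finger factor needed for the kidney, the gonad and the mesothelium, was at 1.49, 6.64 and 3.15 CPM in CONTROL and at 0, 1.05 and 0.667 CPM in HOXA13. Its groups did not overlap, and its highest library was CONTROL replicate 2. Its mean was 3.76 ± 2.63 CPM (SD, n = 3) in CONTROL and 0.574 ± 0.533 CPM in HOXA13, and the log2 fold change was -2.67 (SE 1.22, adjusted p = 0.381 by edgeR). If counts were independent, the 0 in HOXA13 replicate 1 would allow up to 0.231 CPM. The most frequent nonzero count in that library was 8, so this limit may be too low. Over 14 alternative settings its log2 fold change ranged from -3.44 to -2.0 with adjusted p from 0.167 to 0.722, and without CONTROL replicate 2 it was -2.0 (adjusted p = 0.395). Osr1, a zinc finger factor and one of the earliest genes of intermediate mesoderm, was at 0.851, 0.400 and 0.900 CPM in CONTROL and at 0.461, 1.17 and 0.485 CPM in HOXA13. Its groups overlapped, with HOXA13 replicate 2 the highest and CONTROL replicate 2 the lowest library. The log2 fold change was -0.02 (SE 1.01, adjusted p = 0.996), with means of 0.717 ± 0.276 CPM (SD, n = 3) and 0.706 ± 0.403 CPM, and a difference was not detectable at this depth.

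Pax2, a paired-box factor that starts duct and kidney formation, held 0, 11 and 0 counts in CONTROL and 6, 15 and 0 counts in HOXA13. Its relative Pax8, which acts in the same duct programme and in the thyroid, held 6, 0 and 0 counts in CONTROL and 0, 0 and 7 in HOXA13. Both genes were spread over the groups without order, and 3 libraries for Pax2 and 4 for Pax8 had no count. Fitted without the filter, the log2 fold change was 0.59 (SE 2.39, adjusted p = 0.948) for Pax2 and -0.02 (SE 2.73, adjusted p = 0.999) for Pax8, so a difference between groups was not detectable at this depth. Lhx1, a LIM homeodomain factor needed for the duct that is also expressed in anterior endoderm, was at 4.33, 2.00 and 0.750 CPM in CONTROL and at 1.38, 1.35 and 0.364 CPM in HOXA13. CONTROL replicate 3 lay below 2 of the HOXA13 libraries, so the groups overlapped. The means of Lhx1 were 2.36 ± 1.82 CPM (SD, n = 3) and 1.03 ± 0.579 CPM, and its log2 fold change was -1.19 (SE 0.97, adjusted p = 0.662), with -1.63 to -0.44 over the alternatives.

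Emx2, a homeobox gene needed for the urogenital system, was at 2.98, 2.08 and 5.62 CPM in CONTROL and at 0.999, 3.22 and 2.36 CPM in HOXA13. The groups overlapped, with CONTROL replicate 3 the highest and HOXA13 replicate 1 the lowest library. The means were 3.56 ± 1.84 CPM (SD, n = 3) and 2.20 ± 1.12 CPM, and the log2 fold change of Emx2 was -0.69 (SE 0.72, adjusted p = 0.744), with -1.10 to -0.22 over the alternatives. Lhx9, a LIM homeobox gene needed for the gonad, was at 9.43, 2.56 and 8.25 CPM in CONTROL and at 0.999, 5.80 and 3.52 CPM in HOXA13. CONTROL replicate 2 lay below 2 HOXA13 libraries, so the groups overlapped. The means were 6.75 ± 3.68 CPM (SD, n = 3) and 3.44 ± 2.40 CPM, and the log2 fold change was -0.97 (SE 0.74, adjusted p = 0.636), with -1.59 to -0.55 over the alternatives. It was -1.37 (adjusted p = 0.211) without CONTROL replicate 2, -0.66 (adjusted p = 0.914) without CONTROL replicate 1 and -0.55 (adjusted p = 0.848) without HOXA13 replicate 1. Lhx9 lies on chromosome 1, where the median log2 fold change of 476 genes was 0.54. With each chromosome offset to its median the log2 fold change of Lhx9 was -1.53 (adjusted p = 0.46).

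Foxd1, a forkhead factor of the kidney stroma, was at 2.84, 3.76 and 0.900 CPM in CONTROL and at 0.922, 1.35 and 0.546 CPM in HOXA13. CONTROL replicates 1 and 2 were above every HOXA13 library and CONTROL replicate 3 was not. The means of Foxd1 were 2.50 ± 1.46 CPM (SD, n = 3) and 0.938 ± 0.401 CPM, and the log2 fold change was -1.40 (SE 0.88, adjusted p = 0.542), with -1.82 to -0.83 over the alternatives. Tbx18, a T-box factor of ureter mesenchyme and epicardium, was at 5.67, 6.16 and 10.1 CPM in CONTROL and at 1.38, 7.26 and 5.46 CPM in HOXA13. The groups overlapped, with HOXA13 replicate 1 below the other 5 libraries. The means of Tbx18 were 7.32 ± 2.44 CPM (SD, n = 3) and 4.70 ± 3.01 CPM, and the log2 fold change was -0.63 (SE 0.63, adjusted p = 0.73), with -1.11 to -0.22 over the alternatives. Tbx15, a T-box factor of limb, craniofacial and dermal mesenchyme, was at 19.0, 10.4 and 18.6 CPM in CONTROL and at 4.00, 8.79 and 4.91 CPM in HOXA13. Every CONTROL library was above every HOXA13 library, the closest pair being CONTROL replicate 2 and HOXA13 replicate 2. The means were 16 ± 4.86 CPM (SD, n = 3) and 5.90 ± 2.54 CPM, a ratio of 2.71. Its log2 fold change was -1.44 (SE 0.43, unadjusted p = 0.00963, adjusted p = 0.186 by edgeR). The adjusted p was 0.0425 with DESeq2, 0.0126 with limma voom and 0.0242 with edgeR without CONTROL replicate 2, within a range of 0.0126 to 0.596 over 15 alternatives. Thus the call for Tbx15 depended on the tool and on 1 library, whereas its sign did not turn in any of the 15.

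Tbx18, Emx2 and Lhx9, whose promoters are printed above, were the members most alike across libraries. Pearson's r of log2 CPM over the 6 libraries was 0.928 between Tbx18 and Emx2, 0.908 between Emx2 and Lhx9 and 0.837 between Tbx18 and Lhx9. Tbx15 had r = 0.84 with Lhx9, Wt1 had r = 0.833 with Tbx18, and Foxd1 had r = 0.853 with Lhx1. Emx2 had r = -0.121 with Lhx1 and Tbx18 r = -0.107 with Lhx1. These values rest on 6 points that share libraries and groups, and are descriptions. HOXA13 replicate 1 was the lowest of the 6 libraries for 5 of the 8 tested members and HOXA13 replicate 2 the highest of the HOXA13 libraries for 7, and CONTROL replicate 2 lay below both other CONTROL libraries for 4. Summed over the 10 members, CPM was 47.0, 34.9 and 48.3 in CONTROL and 10.6, 30.9 and 18.7 in HOXA13.

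The lowest counts were not the most common ones in any library. The most frequent nonzero count of a gene was not 1 in any library, but 5, 10 and 4 in CONTROL and 8, 5 and 3 in HOXA13. In HOXA13 replicate 1, 127 genes had 8 counts and 31 had 1. Reads without molecular identifiers are not independent molecules, and the part of this count distribution in the members' values was not tested.

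**Figure D3:**
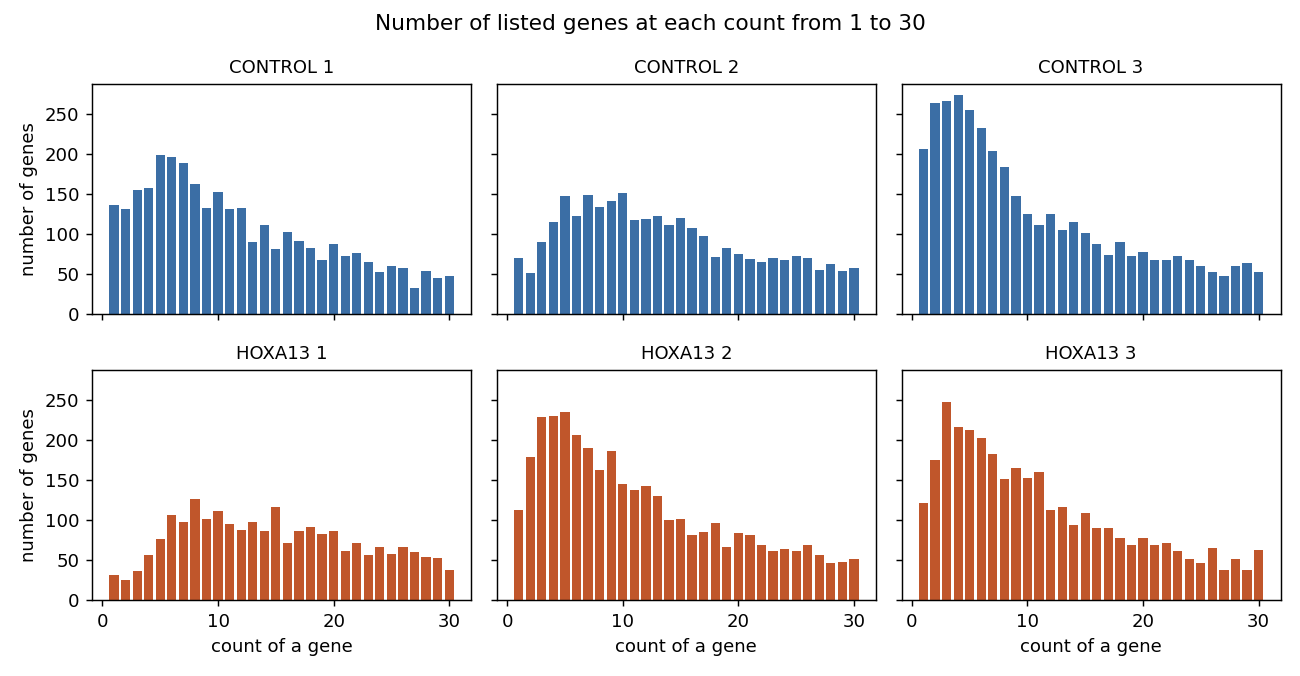
Number of genes (y axis) with each low count (x axis) in each library. The bars peak above 1 in all 6 libraries, furthest in CONTROL replicate 2 at 10 counts and in HOXA13 replicate 1 at 8.

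Of 10 relatives 5 were tested and 0 passed with edgeR (0.309% of all genes did), DESeq2 (5.05%) or limma voom (15.4%). At an unadjusted p under 0.05 in edgeR, 0 of the 5 passed (14.1% of all genes did). Of the 5, 4 were fitted higher and 1 lower, with a median log2 fold change of 0.42. Without overlap, 1 was lower and 1 higher, against 8.52% and 11.5% of all tested genes. Osr2, the relative of Osr1 that also acts in the mesonephros, held 0, 6 and 8 counts in CONTROL and 23, 37 and 26 counts in HOXA13. Its fitted log2 fold change was 2.33 (SE 1.22, adjusted p = 0.45). Osr2 passed the filter (0.737 CPM) in the 3 HOXA13 libraries and in no CONTROL library, and Lhx2 in the 3 HOXA13 libraries and 1 CONTROL library, while Foxd2 did not pass, so the signs of the tested relatives are partly set by the filter and only describe them. Lhx5, a relative of Lhx1, was lower in each HOXA13 library than in any CONTROL library, with a log2 fold change of -0.91 (SE 0.68, adjusted p = 0.625). Foxd2, a relative of Foxd1, held 16, 7 and 18 counts in CONTROL and 0, 6 and 3 in HOXA13 and was not tested. Lhx2, the closest relative of Lhx9, had a log2 fold change of 1.02 (SE 0.85, adjusted p = 0.666). Egr1, an immediate early gene whose zinc fingers resemble those of Wt1, had 0.42 (SE 0.59, adjusted p = 0.814), and Foxd3, a pluripotency and neural crest factor, 0.22 (SE 1.03, adjusted p = 0.954). Pax5, Emx1 and Tbx22 were at 0 in most libraries, and Foxd4 held 7, 0 and 0 counts in CONTROL and 14, 0 and 7 in HOXA13.

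Other genes of the nephric lineage were fitted in both directions. Of 33 such genes 26 were tested and 0 passed, 15 being fitted lower and 11 higher, with a median log2 fold change of -0.19 and sums of 390 to 505 CPM in CONTROL and 392 to 480 CPM in HOXA13. The most abundant were Npnt, a matrix ligand of the ureteric bud, at a log2 fold change of -0.10 (SE 0.30), Wnt4, the inducer of nephron epithelium, at 0.28 (SE 0.45), Gata3, a duct regulator, at -0.18 (SE 0.36), and Sall1, a kidney progenitor factor, at -0.20 (SE 0.24), with adjusted p from 0.783 to 0.928. Of the 26, 0 passed with DESeq2 (5.05% of all genes) and 3 with limma voom (15.4%), and 1 was at an unadjusted p under 0.05 in edgeR (14.1%). Of 20 mesothelium and gonad genes 18 were tested and 0 passed with edgeR (1 with DESeq2, against 5.05% of all genes, and 3 with limma voom, against 15.4%), with 11 fitted lower, 7 higher and a median of -0.19. In that list Sox9, a regulator of testis and of many epithelial progenitors, was at 20.3 to 22.2 CPM in CONTROL and at 36.0 to 80.7 CPM in HOXA13, a log2 fold change of 1.56 (SE 0.30, adjusted p = 0.0899 with edgeR, 0.000466 with DESeq2 and 0.00445 with limma voom), so its call depended on the tool. Podxl, a podocyte and mesothelial sialomucin, had 0.79 (SE 0.31, adjusted p = 0.312, and 0.0198 with limma voom), Cbx2, a gonadal Polycomb gene, -0.44 (adjusted p = 0.546) and Msln, the mesothelial marker mesothelin, 0.00 (adjusted p = 0.999). Known partners and targets of the members, such as the LIM cofactors Ldb1 and Ssbp3 and the WT1 partner Basp1, had 18 of 20 tested, 0 past the threshold, 5 fitted lower and 13 higher, while 2 passed with DESeq2 (5.05% of all genes did) and 8 with limma voom (15.4% did). Of these, Cited2, a coactivator that works with WT1, had -0.35 (SE 0.14, adjusted p = 0.315), Basp1 -0.38 (adjusted p = 0.543) and Ssbp3 0.16 (adjusted p = 0.775). The genes that passed with DESeq2, singled out after their values were seen, were Ldb1, at -0.67 (adjusted p = 0.153 with edgeR, 0.0364 with DESeq2), and Bmp7, a growth factor that keeps nephron progenitors alive, at 2.26 (SE 0.45, adjusted p = 0.0904 with edgeR, 7.59e-05 with DESeq2).

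Of 25 mesenchyme genes 24 were tested, 21 were fitted lower and 0 passed with edgeR (2 with DESeq2, where 5.05% of all genes did, and 9 with limma voom, where 15.4% did), with 9 at an unadjusted p under 0.05 (14.1% of all). Their median log2 fold change was -1.52, and it was -0.94 without CONTROL replicate 1 and -1.95 without CONTROL replicate 2. In CPM, they summed to 16000, 4150 and 12900 in CONTROL and to 3250, 7120 and 7060 in HOXA13, so CONTROL replicate 2 lay within the range of HOXA13. Vim, an intermediate filament of mesenchyme, was at 4350, 548 and 3580 CPM in CONTROL and at 155, 722 and 481 CPM in HOXA13, a log2 fold change of -2.64 (SE 0.78, adjusted p = 0.186). Sparc, a matrix protein, had -1.43 (SE 0.30, adjusted p = 0.102, and 0.000187 with DESeq2), Tagln, a smooth muscle gene, -2.16 (SE 0.82, adjusted p = 0.293), and Fn1, fibronectin, 0.35 (SE 0.37, adjusted p = 0.746). Fn1 lies on chromosome 1, whose median log2 fold change of 0.54 was above that of Fn1. Prrx1, a limb and mesenchyme homeobox gene singled out after its values were seen, was at 18.9, 1.52 and 13.3 CPM in CONTROL. In HOXA13 it was at 0, 8.44 and 2.49 CPM. Prrx1 was among the genes most like Lhx9 (r = 0.994), beside Gtf2ird1 (0.998) and Atf7 (0.994), which are on none of the lists. The mesenchyme sum and the members' sum were thus both lowest in HOXA13 replicate 1, the lowest library for 5 of the 8 tested members. In CONTROL replicate 2 the members' sum, 34.9 CPM, lay above the highest of HOXA13, 30.9 CPM, unlike the mesenchyme sum. The tested members were split there. Wt1, Foxd1, Tbx15 and Lhx1 lay above every HOXA13 library, Wt1 at 6.64 against at most 1.05 CPM. Tbx18, Emx2, Lhx9 and Osr1 lay below HOXA13 replicate 2. Much of the mesenchyme sum was Fn1, at 4630 CPM in HOXA13 replicate 2 and 4980 CPM in HOXA13 replicate 3. The part of other cells in the members' values was not tested.

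**Figure D4:**
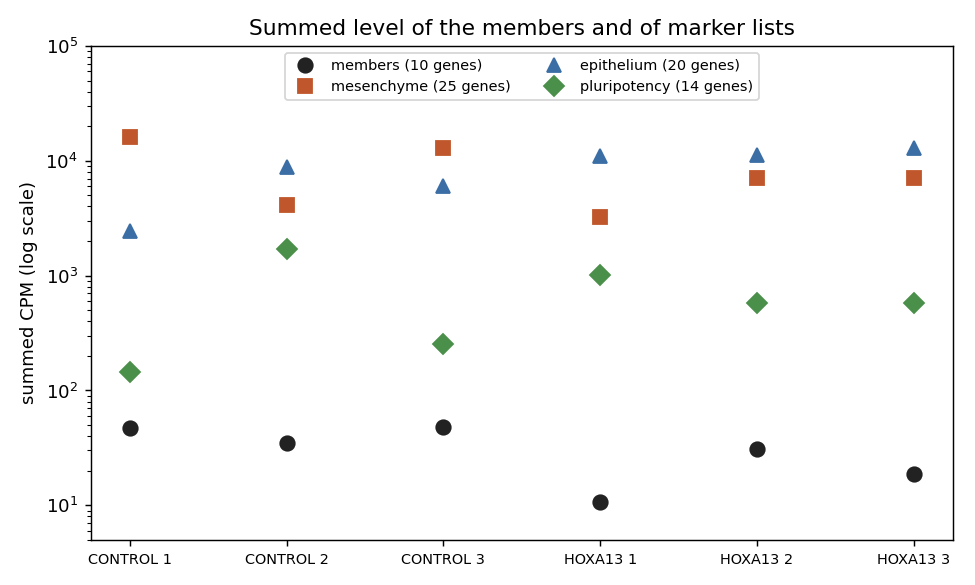
Summed CPM (y axis, log scale) of the 10 members and of the mesenchyme, epithelium and pluripotency lists in each library (x axis). The mesenchyme sum is highest in CONTROL replicates 1 and 3 at 16000 and 12900 CPM, the pluripotency sum in CONTROL replicate 2 at 1690 CPM, and the members' sum is lowest in HOXA13 replicate 1 at 10.6 CPM.

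The 20 epithelium genes were all tested and all fitted higher, with a median log2 fold change of 1.20 (0.77 without CONTROL replicate 1 and 1.91 without CONTROL replicate 2), 15 higher without overlap (11.5% of all tested genes), 12 at an unadjusted p under 0.05 (14.1% of all) and 0 past the threshold with edgeR. With DESeq2, 4 of the 20 passed (5.05% of all genes), and with limma voom 16 (15.4%). The most abundant were Cldn4, a claudin of tight junctions, at 1.07 (SE 0.43, adjusted p = 0.322 by edgeR), Krt18 and Krt8, keratins of simple epithelium, at 0.51 (adjusted p = 0.586) and 0.89 (adjusted p = 0.342), and Cdh1 at 1.28 (adjusted p = 0.351). In CPM, they summed to 2430, 8840 and 6050 in CONTROL and to 11000, 11300 and 12900 in HOXA13. Of 20 other mesoderm genes 13 were tested, 8 were fitted lower, 5 higher and 0 passed with edgeR (4 with DESeq2, where 5.05% of all genes did, and 5 with limma voom, where 15.4% did), with a median of -0.79, which was 0.32 without CONTROL replicate 2 and 0.53 with limma voom, and sums of 172 to 253 CPM in CONTROL and 115 to 142 CPM in HOXA13. Kdr, a receptor of vascular mesoderm, had -1.51 (SE 0.31, adjusted p = 0.0999), Pax3, a somite gene, -1.66 (SE 0.50, adjusted p = 0.194), Hand1, a lateral mesoderm gene, -1.21 (SE 0.43, adjusted p = 0.267) and Tbx20, a heart gene, 1.31 (SE 0.28, adjusted p = 0.102). With DESeq2 the adjusted p was 0.000346 for Kdr, 0.00307 for Tbx20, 0.0363 for Pax3 and 0.0931 for Hand1, and limma voom put all 4 under the threshold. Nkx2-5, singled out after its values were seen, was the other gene of this list that passed with DESeq2. Its log2 fold change was -3.78 (SE 0.93, adjusted p = 0.136 with edgeR, 0.0035 with DESeq2 and 0.0262 with limma voom). The 11 tested endoderm genes had a median of -0.02 with 0 past the threshold in edgeR, 2 in DESeq2 (5.05% of all genes) and 3 in limma voom (15.4%), and the median was 0.50 without CONTROL replicate 2. Eomes, a T-box gene of mesendoderm, had -1.32 (adjusted p = 0.141 with edgeR, 0.00575 with DESeq2) and Prdm1, a repressor expressed in endoderm, 1.80 (adjusted p = 0.169 with edgeR, 0.0113 with DESeq2). Gata4 had -0.31 (adjusted p = 0.798 with edgeR). Gata6, which like Gata4 is a zinc finger factor of endoderm, had -1.12 (adjusted p = 0.434 with edgeR, 0.286 with DESeq2 and 0.0444 with limma voom). The 14 pluripotency genes had a median of -0.39, which turned to 2.21 without CONTROL replicate 2 and to 1.26 with limma voom. This median also turned to 0.85 with the replicate block and to 0.17 with DESeq2 (8 genes). Among the 14, 0 passed with edgeR, where 0 were at an unadjusted p under 0.05, 0 of the 8 with an adjusted p in DESeq2, and 5 with limma voom (15.4% of all genes). Pou5f1, the core factor of pluripotency, had -1.65 (SE 1.65, adjusted p = 0.734), Sox2, its partner, 0.27 (adjusted p = 0.951), and Klf4 and Tfcp2l1, factors of the naive state, 0.64 (adjusted p = 0.449) and 0.99 (adjusted p = 0.734), all with edgeR. With limma voom, which weights the libraries, Pou5f1 turned to 1.82 (adjusted p = 0.266), and Sox2 had 3.04 (adjusted p = 0.0114), Klf4 0.97 (adjusted p = 0.011) and Tfcp2l1 2.47 (adjusted p = 0.016). Sox2 was at 3.9, 152 and 5.77 CPM in CONTROL, so that CONTROL replicate 2 held most of its CONTROL level. The 4 Y-linked genes measured summed to 8.65, 0 and 134 CPM in the CONTROL libraries and to 0, 0.469 and 0.243 CPM in the HOXA13 libraries, highest in CONTROL replicate 3 and next in CONTROL replicate 1. The part of this in the members' values was not tested.

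Among genes of at least 5 CPM, those whose log2 CPM over the 6 libraries was most like a member's were named by the highest Pearson's r over 10724 or 10725 genes. They were Lhfpl2 (r = 0.998), Pidd1 (0.996) and Qser1 (0.995) for Tbx15, and Gtf2ird1 (0.998), Prrx1 (0.994) and Atf7 (0.994) for Lhx9. For Wt1 they were AW554918 (0.995), Eri3 (0.994) and Gnptg (0.984), for Emx2 Sun1 (0.994), Zfp513 (0.993) and Mdm2 (0.988), and for Tbx18 Coq5 (0.992), Ptcd3 (0.983) and Snx25 (0.98). For Osr1 they were Ppp2r5e (0.988), Fam178a (0.977) and Penk (0.977), for Foxd1 Ndufa9 (0.972), Hoxa9 (0.967) and Trp53i13 (0.966), and for Lhx1 Polr2a (0.98), Sec22c (0.977) and Phka1 (0.976). With 6 points and so many genes, high values of r arise readily, and the list is a description.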

How the data were processed

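RNA was measured in 6 libraries, 3 CONTROL and 3 HOXA13, whose titles give group and replicate number. The authors deposited unnormalised counts of reads for each gene symbol, from directional poly-A libraries aligned to mm9 (TopHat) and counted by HTSeq. The submitters' processing notes name TopHat2 2.0.14 and HTSeq 0.6.1p1. The annotation and the strand option used for counting are not given in the sources used here.

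The tests used edgeR 4.0.16 under R 4.3.3. Low genes were removed by filterByExpr (minimum count 10, minimum total 15), which left 13600 genes, scaled by TMM and compared with glmQLFit and glmQLFTest on the group alone, with Benjamini-Hochberg adjustment over all genes and a threshold of 0.05. The biological coefficient of variation was 41.5%. CPM used the TMM-scaled library sizes, RPKM the GENCODE M1 exon length, and r a pseudocount of 0.15 CPM. The members, the lists of nephric, mesothelium and gonad, mesenchyme, other mesoderm, epithelium, endoderm, pluripotency, partner and relative genes, and the tests were chosen with earlier results of these data known. Named were the members, the 4 most abundant genes of each list, any list gene past the threshold, relatives, sorting and induced genes, and the 3 genes most like each member. Prrx1, Ldb1, Bmp7 and the Y-linked genes were added after their values were seen. Alternatives were DESeq2 1.42.0, limma 3.58.1 voom with sample weights, the edgeR 4 method, RLE and upper quartile scaling, no filter, a minimum mean of 50 counts, a replicate block, a chromosome offset and leaving out each library. The code was tested on simulated data.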

Additional observations from a re-analysis of the deposited data

How the results depend on the processing

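The number of genes past the threshold, 42 of 13600, was the value that moved most. It was 106 with the edgeR 4 method, 163 with no filter, 9 with a minimum mean of 50 counts, 722 with DESeq2, 2101 with limma voom, 1 with the chromosome offset, and 0 to 2006 when each library was left out, the highest without CONTROL replicate 2. The number of members past the threshold, 0, was 1 with DESeq2 and with limma voom and 0 to 1 when each library was left out, the 1 being Tbx15 without CONTROL replicate 2. With the replicate block 0 genes (1392 at an unadjusted p under 0.05) and 0 members passed, and the median of the members was -1.09. Samples with the same number did not deviate together (mean r -0.128, against 0.0724 for other pairs), so no pairing was found, although 3 same-number values with an outlying CONTROL replicate 2 cannot exclude one. The median log2 fold change of the members stayed below 0 in all 15 alternatives (-1.53 to -0.81). Osr1 turned sign, to 0.01 with the edgeR 4 method and to 0.10, 0.16, 0.19 and 0.17 without CONTROL replicate 1, CONTROL replicate 3, HOXA13 replicate 1 and HOXA13 replicate 3, over a range of -0.62 to 0.19, and the cause was not tested. Under the minimum mean of 50 counts, 3 members, Tbx15, Tbx18 and Lhx9, were tested. Over the 15 alternatives the median of the mesenchyme list ranged from -1.95 to -0.94, that of the epithelium list from 0.77 to 1.91 that of the nephric list from -0.51 to 0.01, that of the mesothelium and gonad list from -0.38 to 0.11, that of the other mesoderm list from -1.26 to 0.53, that of the endoderm list from -0.37 to 0.50, that of the pluripotency list from -0.81 to 2.21 and that of the partner list from 0.05 to 0.28. Pax2 and Pax8 held 32 and 13 counts in all libraries together and did not pass the filter.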
